A study of Mus musculus with 10 samples.

Results

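The trigeminal ganglia of mice were compared 6 hours after urocortin 1 (UCN1) or phosphate-buffered saline (PBS) was injected into the ganglion. RNA sequencing gave 2 UCN1 and 2 PBS libraries. Gene levels were in FPKM, which are read numbers divided by the length of the gene and by the depth of the library. Every gene with a mean of at least 0.5 FPKM over the 4 libraries was taken, which gave 16139 of the 55886 genes in the table. A further 27742 genes were at 0 in every library. The last gene inside this limit was Fgf10 at 0.5003 FPKM, and the first outside it was the pseudogene Ap3s1-ps2 at 0.499 FPKM. Genotype, strain, sex, age and the dose of UCN1 are not given in the sources used here. This experiment has no group without an injection in the data analysed here, so both groups share whatever the needle and the fluid did to the ganglion. The labels do not say whether the libraries came from separate animals or from pools, and the p-values here cover the spread between libraries alone, part or all of which may be technical.

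The trigeminal ganglion holds the cell bodies of the sensory neurons of the face, each wrapped in satellite glia, among Schwann cells, macrophages, fibroblasts and vessels. UCN1 is a peptide of the corticotropin-releasing factor (CRF) family that binds both CRF receptors, CRHR1 and CRHR2. These receptors act mainly through the G protein Gs, which raises cyclic AMP (cAMP) and activates protein kinase A and the transcription factor CREB. The series title names UCN1 together with trigeminal neuropathic pain and the small heat shock protein HSPB1, so Hspb1 is described with the chaperones.

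Depth ran from 15693000 to 17052000 reads in genes per library, as recovered from the steps of the low FPKM values. On the log2(FPKM + 0.5) scale the Pearson correlation between libraries was 0.981 within PBS, 0.986 within UCN1, and 0.976 to 0.979 between the groups. The markers of the labelled tissue were present. All 17 sensory neuron, 10 satellite glia, 9 Schwann cell and 10 macrophage markers were above 0 in every library. Summed neuron markers were at 9008 and 9353 FPKM after PBS and at 9646 and 9628 FPKM after UCN1, and satellite glia markers at 4885 and 4599 against 5153 and 5293 FPKM. The macrophage sums overlapped, with 136 and 120 FPKM after PBS and 117 and 128 FPKM after UCN1.

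After UCN1, the chaperone genes Hspa1b, Dnajb1, Hspb1 and Hspa5, the AP-1 genes Fos, Fosl2, Junb and Atf3, and Socs3 and Gfap rose. The pituitary hormone genes Gh, Prl and Pomc, several meningeal and matrix genes such as Mfap4 and Fmod, H19, and the cold-inducible genes Cirbp and Rbm3 fell. Limma on log2(FPKM + 0.5) gave a Benjamini-Hochberg adjusted p under 0.05 to 97 genes (0.601% of those tested), which are said to be called. An unadjusted p under 0.05 was found higher in 6.36% and lower in 6.73% of genes, the background for such counts below. Of the 97 called genes, 49 were higher after UCN1 (0.304% of the genes tested) and 48 were lower (0.297%). The median size of the change was 0.99 on the log2 scale among the higher genes and 1.49 among the lower ones, and 24 higher and 35 lower genes changed at least 2-fold. In all 97 the groups did not overlap, which was also so of 21.8% (higher) and 23.7% (lower) of all genes tested. The median over all genes tested was -0.01. With 2 libraries a group, calls depended on each one. Leaving out PBS 1, PBS 2, UCN1 1 or UCN1 2 left 13, 7, 4 and 2 genes called. Of the 97 genes, 93 were called in none of these fits, Gh and Mfap4 were called in all of them, and all 97 kept their direction.

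**Figure D1:**
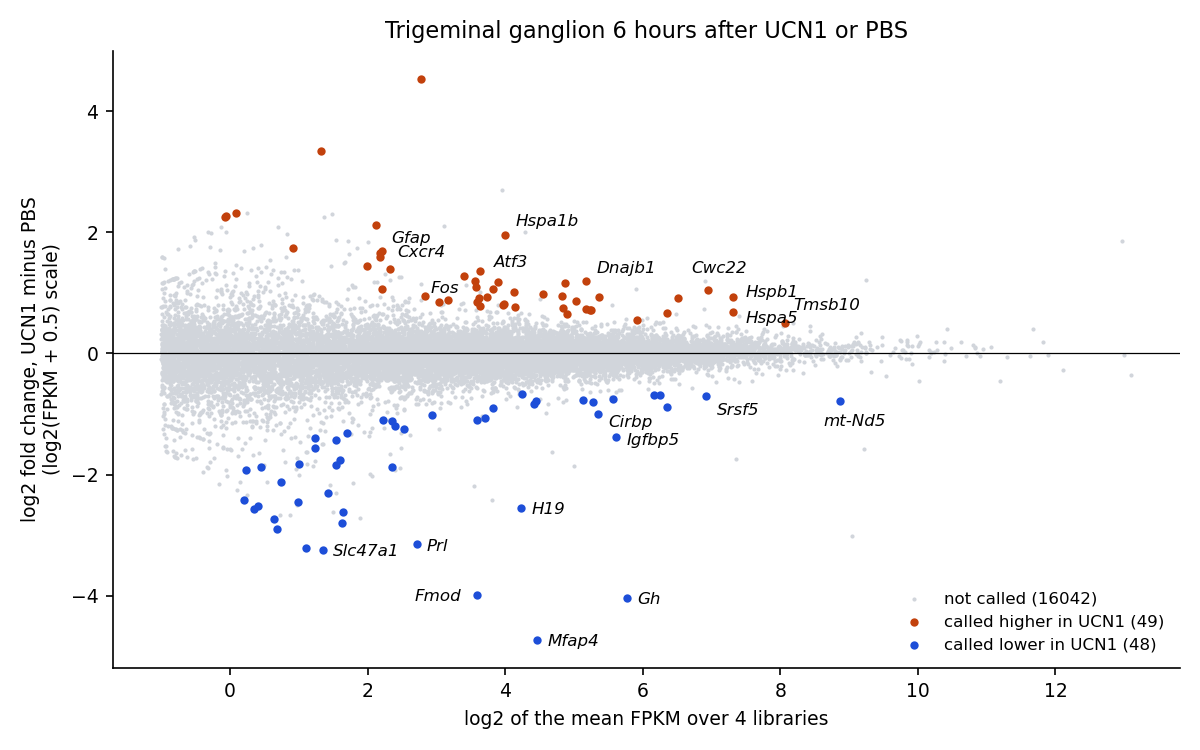
Each point is 1 of the 16139 genes tested, with the log2 of its mean FPKM over the 4 libraries on the x axis and its log2 fold change, UCN1 minus PBS, on the y axis. The 49 genes called higher (orange) lie mostly between 0.51 and 1.96, and the 48 called lower (blue) reach down to Mfap4 at -4.73.

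The CRF system itself was measured at low levels. Ucn, which encodes the injected peptide, was at 0 and 0.467 FPKM after PBS and at 0.117 and 0.121 FPKM after UCN1, below the limit for testing. Crh, Ucn2, Ucn3 and the binding protein gene Crhbp were below it too. The receptor Crhr1 was at 3.19 and 3.31 FPKM after PBS and at 2.46 and 3.32 FPKM after UCN1, and Crhr2 was at 2.06 and 3.36 against 2.59 and 1.96 FPKM. The groups overlapped for both receptors, with log2 differences of -0.16 ± 0.21 (SE) and -0.19 ± 0.27. Among 29 genes of Gs and cAMP signalling limma called none. At an unadjusted p under 0.05 there was 1, which was higher. Another limma test, voom on reads recovered from the FPKM steps, called 1 higher gene. Adcy1, a calcium-stimulated adenylyl cyclase of neurons, was at 13.8 and 12.9 FPKM after PBS and at 17.0 and 18.3 FPKM after UCN1 (adjusted p = 0.233).

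Cytosolic chaperones, which fold and refold proteins and are induced by heat shock factor 1 under stress, held the largest increase among the called genes that are not predicted genes or pseudogenes. Hspa1b, an inducible HSP70 gene on chromosome 17 (34956436 to 34959238 in GRCm38, minus strand), was at 5.82 and 6.65 FPKM after PBS and at 23.7 and 27.9 FPKM after UCN1. Both UCN1 libraries lay far above both PBS libraries, with a log2 difference of 1.96 ± 0.14 (SE) and an adjusted p of 0.0015. Hspa1a is a near-identical copy, so reads of the pair could be split between them. It was at 0.387 and 0.198 FPKM after PBS and at 1.40 and 1.49 FPKM after UCN1 and was not called (adjusted p = 0.153). Dnajb1, the HSP40 co-chaperone of HSP70, rose from 21.0 and 22.8 FPKM to 49.4 and 51.7 FPKM (log2 difference 1.19 ± 0.10, adjusted p = 0.00469). Hspb1, the small heat shock protein of the series title (chromosome 5, 135887919 to 135889563), was at 98.0 and 122 FPKM after PBS and at 197 and 221 FPKM after UCN1. The groups did not overlap, and the log2 difference was 0.93 ± 0.12 (adjusted p = 0.0222).

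The rest of the chaperone list moved less. Of 36 cytosolic chaperone genes tested, 2 were called higher and none lower, and in 22 the UCN1 libraries lay above both PBS libraries. The median log2 difference of the list was 0.20. The abundant HSP90 gene Hsp90ab1 was at 2706 and 2906 FPKM after PBS and at 3631 and 3812 FPKM after UCN1 (adjusted p = 0.111). Hspa8, the constitutive HSP70, was at 1144 and 1208 against 1529 and 1599 FPKM (adjusted p = 0.0952). For both genes the groups stood apart by about the same log2 difference, 0.41, and neither passed the threshold. Hsph1, Bag3 and Cryab, which encode a nucleotide exchange factor, a co-chaperone of selective autophagy and the small heat shock protein alphaB-crystallin, showed log2 differences of 0.45, 0.47 and 0.50. Hsp90aa1 differed by 0.18 and Hsf1, the heat shock factor gene, by 0.06. On recovered reads voom called 10 genes of this list, all higher. Of 6 small heat shock protein genes tested, Hspb1 was the 1 called. Among 8 subunits of the chaperonin TRiC and 7 mitochondrial chaperones limma called none, and each list had 1 higher gene at an unadjusted p under 0.05. Voom called none of the first and 1 of the second.

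The promoters of Hspa1b and Hspb1 are shown because both genes changed and their windows hold a match to the sites of heat shock factor 1, which are built from inverted repeats of a short unit. The windows of Dnajb1 and Serpinh1, also called higher, hold none. The windows hold the 250 bases before the gene start (RefSeq, GRCm38.p6), with capitals for pairs of units, spelled GAANNTTC or TTCNNGAA and read on both strands. Hspa1b lies at chr17:34959239-34959488 (minus strand) and Hspb1 at chr5:135887669-135887918 (plus strand).
Hspa1b: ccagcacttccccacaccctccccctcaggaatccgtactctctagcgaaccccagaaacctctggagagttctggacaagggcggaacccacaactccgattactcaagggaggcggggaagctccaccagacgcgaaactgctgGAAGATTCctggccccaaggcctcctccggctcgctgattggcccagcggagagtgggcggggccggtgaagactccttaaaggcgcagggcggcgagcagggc
Hspb1: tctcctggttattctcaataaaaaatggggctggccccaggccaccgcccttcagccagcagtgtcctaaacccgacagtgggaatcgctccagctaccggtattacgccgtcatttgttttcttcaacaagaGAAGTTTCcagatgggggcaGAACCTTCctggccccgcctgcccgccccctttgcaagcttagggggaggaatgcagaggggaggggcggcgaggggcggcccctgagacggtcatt
The pair in Hspa1b began 104 bases before the gene start, and those in Hspb1 117 and 97 bases before it. Among 11247 tested genes with such a window, 1128 (10.0%) held this pair. It was in 7 of 29 genes called higher, in 2 of 23 called lower and in 7 of 30 chaperones. A run of 3 units was in 0 of the 29 and in 0.329% of all windows. A match of letters is a description and does not show binding.

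**Figure D2:**
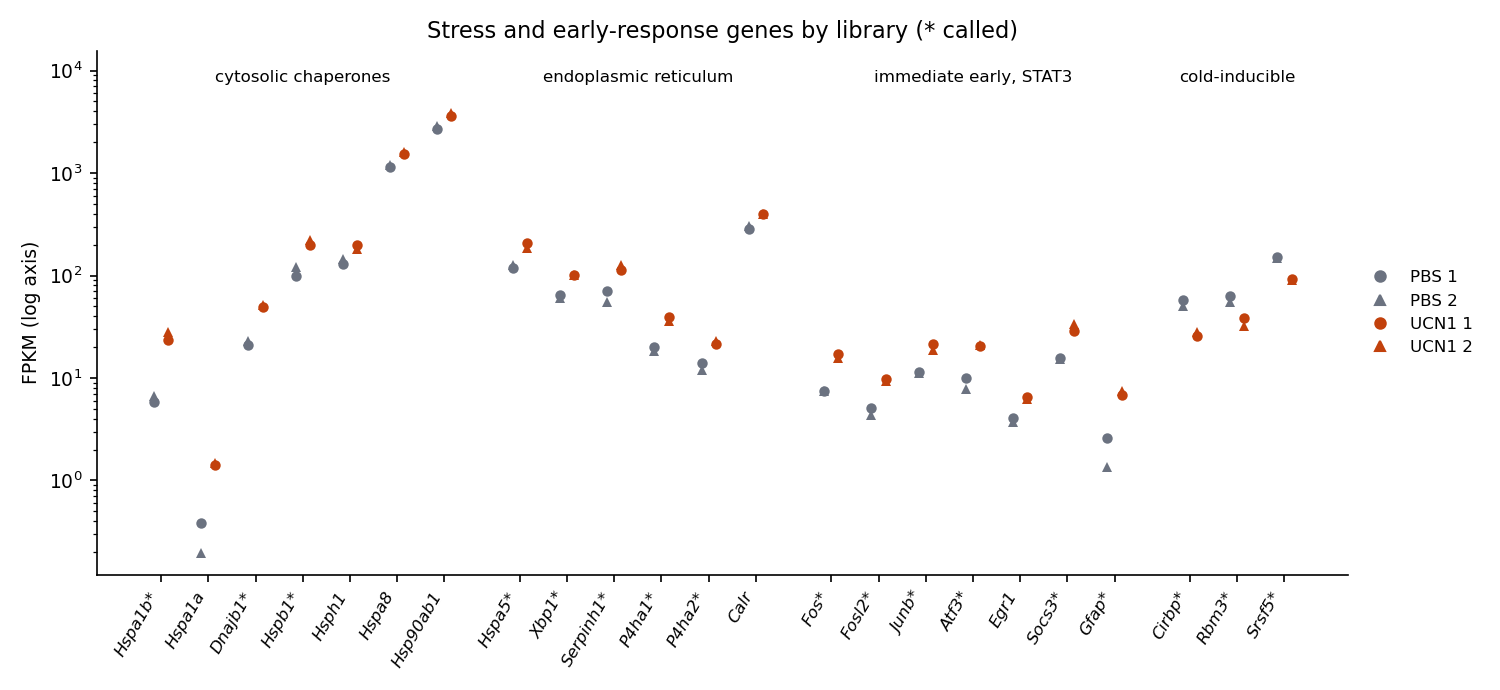
FPKM in each library (log axis) is shown for chaperone, endoplasmic reticulum, early-response and cold-inducible genes, with PBS in grey, UCN1 in orange, circles for replicate 1 and triangles for replicate 2, and an asterisk for called genes. Hspa1b rises from 5.82 and 6.65 to 23.7 and 27.9 FPKM, while Cirbp falls from 58.1 and 50.6 to 25.8 and 28.0 FPKM.

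In the endoplasmic reticulum, where secreted and membrane proteins fold, 2 genes of the unfolded protein response were called higher. Hspa5, which encodes the master chaperone BiP, was at 118 and 128 FPKM after PBS and at 206 and 188 FPKM after UCN1 (log2 difference 0.68 ± 0.09, adjusted p = 0.0242). Xbp1, the transcription factor that is spliced when this response is active, was at 65.1 and 60.9 against 100.2 and 100.4 FPKM (0.67 ± 0.09, adjusted p = 0.0223). Spliced and unspliced Xbp1 cannot be told apart at the gene level. Of the 30 genes tested none was called lower, and the groups stood apart with UCN1 higher in 13 and lower in 3. Pdia6, a disulphide isomerase, was at 60.5 and 63.8 against 90.4 and 87.3 FPKM (adjusted p = 0.0543), and Calr, the chaperone calreticulin, at 282 and 302 against 403 and 399 FPKM (adjusted p = 0.0604). On recovered reads voom called 7 of the 30 genes, all higher. Among the 22 genes of the integrated stress response, the branch that runs through Atf4, limma called none. There, 7 genes were higher at an unadjusted p under 0.05, none was lower, and voom called 1 higher gene. Atf4 was at 64.2 and 54.3 against 79.2 and 81.2 FPKM and Ddit3, which encodes CHOP, at 14.1 and 13.3 against 19.02 and 17.2 FPKM.

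Several genes of the unfolded protein response carry the endoplasmic reticulum stress element (ERSE) in their promoters, searched here as CCAAT and CCACG with 9 bases between them. It contains a CCAAT box. It was found on either strand in 9 of 25 windows of this list and in 16 (0.142%) of the 11247 windows of all tested genes. The windows of Hspa5, which was called, and Calr, which missed the threshold, are shown with the element in capitals because they hold it. The window of Xbp1, the other called gene of the list, does not. In Calr it reads on the opposite strand. Hspa5 lies at chr2:34771840-34772089 (plus strand) and Calr at chr8:84846932-84847181 (minus strand).
Hspa5: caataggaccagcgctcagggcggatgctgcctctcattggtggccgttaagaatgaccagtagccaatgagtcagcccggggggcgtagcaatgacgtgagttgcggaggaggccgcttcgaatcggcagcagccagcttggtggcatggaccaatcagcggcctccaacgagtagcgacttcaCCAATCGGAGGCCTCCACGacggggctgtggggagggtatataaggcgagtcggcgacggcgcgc
Calr: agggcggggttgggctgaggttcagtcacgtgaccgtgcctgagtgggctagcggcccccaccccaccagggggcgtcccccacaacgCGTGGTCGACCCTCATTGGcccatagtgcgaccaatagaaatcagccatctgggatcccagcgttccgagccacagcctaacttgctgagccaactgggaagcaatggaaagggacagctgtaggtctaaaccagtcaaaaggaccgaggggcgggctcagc
The element began 65 bases before the RefSeq start of Hspa5 and 162 bases before that of Calr. The deposited coordinates start Hspa5 at 34771970, so by them its element lies inside the gene. A CCAAT box alone was in 21 of the 25 windows and in 35.8% of all.

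Among the genes called higher were 4 that act on collagen, gathered after their values were seen and not a list. Serpinh1, the collagen chaperone HSP47, was at 70.6 and 55.8 FPKM after PBS and at 113 and 126 FPKM after UCN1 (log2 difference 0.92 ± 0.12, adjusted p = 0.0258). P4ha1 and P4ha2 encode subunits of prolyl 4-hydroxylase, which hydroxylates collagen, and rose too, P4ha1 from 20.1 and 18.3 to 39.4 and 35.9 FPKM (0.95 ± 0.11) and P4ha2 from 13.9 and 11.97 to 21.5 and 23.2 FPKM (0.77 ± 0.12). P4ha1 and P4ha2 were the 2 called of 25 genes of hypoxia and glycolysis, a list to which they also belong. None was called lower there, and the list's median was 0.11. Pxdn, a peroxidase that crosslinks collagen IV, was higher by 0.71. Of the collagens given with the matrix genes, Col1a1 and Col3a1 were not called and Col6a1 was lower.

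The cold-inducible RNA-binding proteins fell. Cirbp and Rbm3, whose transcripts are known to rise with mild cooling and to fall with warming, were at 58.1 and 50.6 against 25.8 and 28.0 FPKM and at 63.6 and 55.3 against 38.2 and 32.4 FPKM. Their log2 differences were -0.999 ± 0.108 (adjusted p = 0.0137) and -0.75 ± 0.12 (adjusted p = 0.0462). Srsf5, a splicing factor, was at 151 and 149 against 93.3 and 91.1 FPKM and fell by 0.70. In all 4 genes listed both UCN1 libraries were below both PBS libraries. These 3 were called lower, and the fourth, Srsf2, differed by -0.37 without being called.

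Immediate early genes, which cells switch on within minutes to hours of a stimulus and several of which CREB drives, were called higher in 4 of 39 cases and lower in none. At an unadjusted p under 0.05, 9 were higher and 2 lower, and voom called 7 higher and 2 lower. The median of the list was 0.14. Fos was at 7.41 and 7.41 FPKM after PBS and at 17.3 and 15.6 FPKM after UCN1 (log2 difference 1.10 ± 0.13, adjusted p = 0.0179). Atf3, a stress and injury factor of sensory neurons, was at 9.93 and 7.87 against 20.4 and 21.0 FPKM (1.18 ± 0.14, adjusted p = 0.0179). Both AP-1 partners Fosl2 and Junb rose, Fosl2 from 5.07 and 4.33 to 9.78 and 9.29 FPKM (0.95 ± 0.15) and Junb from 11.4 and 11.2 to 21.2 and 18.8 FPKM (0.80 ± 0.12). Jun was at 49.5 and 54.9 against 69.4 and 72.3 FPKM and was not called (adjusted p = 0.111). Egr1 was at 4.07 and 3.76 against 6.50 and 6.25 FPKM, also uncalled (adjusted p = 0.169). Not every early gene was higher, since the CREB target Nr4a1 differed by -0.06 and the clock gene Per1 by -0.45. Crem, another CREB target, differed by 0.09, and none of these genes was called. Npas4 was below the limit for testing. A CREB site spelled TGACGTCA was found in 3 of 29 windows of this list and in 2.64% of all windows. The windows of the called genes Fos, Atf3 and Junb hold no such spelling. In the 15 genes of MAP kinase feedback limma called none, 5 were higher at an unadjusted p under 0.05, and voom called 3, all higher. Among them Etv4, a transcription factor downstream of ERK, was at 4.22 and 5.07 against 7.82 and 10.3 FPKM (adjusted p = 0.105).

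The list of the gp130 cytokine receptor, its factor STAT3 and genes around them had 3 called genes of 19, all higher. Socs3, the feedback inhibitor of this receptor, was at 15.8 and 15.3 FPKM after PBS and at 28.9 and 33.8 FPKM after UCN1 (log2 difference 0.99 ± 0.12, adjusted p = 0.0179). Gfap, the intermediate filament of reactive glia, was at 2.63 and 1.35 against 6.81 and 7.39 FPKM (1.66 ± 0.26, adjusted p = 0.0462). In the separate surgery experiment of the series, Gfap ran from 0.734 to 11.3 FPKM over 3 sham libraries. The third called gene was Junb. Upstream genes differed less, Il6st, which encodes gp130, by 0.23 and Stat3 by 0.16, without a call. Il6 was below the limit for testing. Sbno2 and Bcl6, transcriptional regulators of inflammation, were called higher by 0.74 and 0.93.
In the window of Socs3 (chr11:117969367-117969616, minus strand), shown because the gene was called and holds a match, the STAT spacing TTCNNNGAA is in capitals.
Socs3: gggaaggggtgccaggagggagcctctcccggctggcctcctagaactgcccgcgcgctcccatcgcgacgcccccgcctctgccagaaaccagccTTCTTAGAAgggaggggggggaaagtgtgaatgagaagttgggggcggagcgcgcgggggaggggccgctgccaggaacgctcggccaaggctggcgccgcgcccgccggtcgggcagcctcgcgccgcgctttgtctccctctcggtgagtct
It began 154 bases before the RefSeq start. The deposited coordinates of Socs3 run from 117966079 to 117970047, so by them the whole window lies inside the gene. The windows of Gfap and Junb hold no such spacing. This spacing was in 1 of 17 windows of this list (5.88%) and in 5.78% of all.

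Glial genes gave few calls. Of 24 satellite glia genes tested, Gfap was the 1 called. At an unadjusted p under 0.05, 5 were higher and 4 lower, and voom called 2 higher and 3 lower. Fabp7, a fatty acid binding protein that marks these cells, was at 77.5 and 61.3 FPKM after PBS and at 106 and 112 FPKM after UCN1 (adjusted p = 0.0721). Ttyh1 was at 121 and 95.6 against 79.9 and 70.9 FPKM (adjusted p = 0.152), and the gap junction gene Gja1 overlapped between the groups. Of 19 reactive glia genes, Gfap and Hspb1 were called higher, and voom called 2 higher and 1 lower. Among 20 genes of myelinating Schwann cells limma and voom called none, 1 was higher and 1 lower at an unadjusted p under 0.05, and the groups stood apart in 1 gene each way. The median of that list was -0.02.

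Among neuronal genes 2 signalling molecules were called. Alkal2, a ligand of the receptor ALK in sensory neurons, was at 1.52 and 2.33 FPKM after PBS and at 5.75 and 6.34 FPKM after UCN1 (log2 difference 1.45 ± 0.22, adjusted p = 0.0432). A gene on the other strand overlaps 35.1% of its exon length. Alk itself was at 0.752 and 0.676 against 0.949 and 0.881 FPKM and was not called. Cartpt, which encodes the CART peptide, was at 9.13 and 7.84 against 15.95 and 15.5 FPKM (0.86 ± 0.13, adjusted p = 0.0462) and was the 1 called of 17 neuropeptide genes. In that list 12 log2 differences were positive and 5 negative, down to -1.27, with a median of 0.09. Without overlap 8 were higher and 2 lower. At an unadjusted p under 0.05, 6 were higher and 1 lower, and voom called 3, all higher. Nts, the neurotensin precursor, was at 0.919 and 0.846 against 3.24 and 2.96 FPKM (adjusted p = 0.0573). Gal, the galanin precursor, was at 5.76 and 3.70 against 7.87 and 8.13 FPKM (adjusted p = 0.209). Calca, the CGRP gene, was at 686 and 601 against 828 and 732 FPKM (adjusted p = 0.304).

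The receptors and channels of sensory neurons gave no call. Of 34 nociceptor genes 28 had a positive log2 difference, and the UCN1 libraries were higher without overlap in 14 and lower in 2. The median was 0.13. Limma and voom called none of them, and 7 were higher and none lower at an unadjusted p under 0.05. Trpv1, the capsaicin receptor, was at 25.6 and 29.1 against 31.0 and 33.9 FPKM. The summed sensory neuron markers, given above, were also higher in both UCN1 libraries, and their part in these values was not tested. Among 24 genes of large-fibre neurons none was called by either and 1 was lower at an unadjusted p under 0.05. Of 40 potassium channel genes none was called by either and 1 was higher at that level. Of 29 sodium and calcium channel genes limma called none and 3 were lower at that level, and voom called 1 lower. The nerve injury list had Atf3 as its 1 called gene of 33, with Sprr1a and Npy below the limit for testing.

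Immune genes gave 2 calls, 1 in each direction, and the lower one was lost under most alternatives. Cxcr4, the receptor of the chemokine CXCL12, was at 6.35 and 5.55 FPKM after PBS and at 13.6 and 16.8 FPKM after UCN1 (log2 difference 1.28 ± 0.16, adjusted p = 0.0184). It was the 1 called of 7 chemokine receptors, and Cxcl12 and the second receptor Ackr3 overlapped between the groups. In 23 genes of acute inflammation limma called none, with 3 higher and 3 lower at an unadjusted p under 0.05, while voom called 2, both higher. Ccl11, the chemokine eotaxin, was at 8.13 and 5.20 against 14.1 and 15.8 FPKM (adjusted p = 0.0626), and Ccl2 at 0.934 and 0.799 against 1.78 and 1.84 FPKM (adjusted p = 0.284). Retnla, a marker of alternatively activated macrophages, was at 2.34 and 1.96 against 0.0979 and 0.303 FPKM (log2 difference -1.93 ± 0.32, adjusted p = 0.0488) and was the 1 called of 32 macrophage genes. It rested on 22 and 20 reads after PBS and on 1 and 3 after UCN1. Its call held in 4 of 12 alternatives and was lost with a pseudocount of 0.1, as TPM, with voom, without a filter and on leaving out any library, with adjusted p up to 0.388. Of 15 genes of antigen presentation, 8 were lower and 1 higher without overlap, with a median of -0.27. Limma called none, 4 were lower at an unadjusted p under 0.05, and voom called 3 lower. The class II genes H2-Aa and H2-Ab1 were at 12.3 and 15.2 against 7.55 and 7.92 FPKM and at 19.4 and 27.7 against 13.6 and 11.3 FPKM. In 28 interferon response genes limma called none, with 3 higher and 5 lower at an unadjusted p under 0.05. Voom called 1 there, which was higher.

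The largest decreases were in genes of connective tissue and of the pituitary. Mfap4, a microfibril protein of connective tissue (chromosome 11, 61485431 to 61488900), was at 44.9 and 40.9 FPKM after PBS and at 1.28 and 1.01 FPKM after UCN1. That was a log2 difference of -4.73 ± 0.15 with an adjusted p of 8.41e-06. In a bulk tissue, fewer cells of a type and less RNA per cell cannot be told apart. Fmod, the collagen-binding fibromodulin, was at 33.2 and 13.2 against 1.09 and 0.663 FPKM (-3.98 ± 0.38, adjusted p = 0.00864). The PBS libraries differed from each other here, but both lay far above both UCN1 libraries. Cpz, a carboxypeptidase of the matrix, fell from 7.04 and 4.49 to 0.272 and 0.515 FPKM (-2.79 ± 0.29, adjusted p = 0.013). Fbln1, for the matrix protein fibulin 1, fell from 4.65 and 5.25 to 1.08 and 1.12 FPKM (-1.77 ± 0.21, adjusted p = 0.0179). Eln, Bgn and Col6a1, for elastin, biglycan and a collagen VI chain, fell by 1.12, 0.88 and 0.83. In all, 7 of 49 matrix genes were called lower and none higher, 25 were lower and 1 higher without overlap, and the median was -0.19. In the separate surgery experiment, where no peptide was injected, Mfap4 ran from 4.20 to 7.75 FPKM over 3 sham libraries. Over the 3 operated (pIONT) libraries Mfap4 ran from 4.92 to 19.9 FPKM and Fmod from 1.56 to 10.0 FPKM, while Eln ran only from 0.952 to 1.28 FPKM. The part of the amount of connective tissue in a library in these values was not tested.

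Col1a1, Col3a1 and Dcn, for the collagens I and III and the proteoglycan decorin, were not called. Col1a1 was at 251 and 195 FPKM after PBS and at 191 and 207 FPKM after UCN1, Col3a1 at 203 and 144 against 183 and 185 FPKM, and Dcn at 241 and 206 against 246 and 217 FPKM. In these 3 genes the groups overlapped. The 16 markers fixed for fibroblasts and meninges summed to 1358 and 1035 FPKM after PBS and to 1039 and 976 FPKM after UCN1. Of 15 tested, 3 were called lower, Mfap4, Fmod and Slc47a1, and none was at 0 in all libraries.

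The meninges are the sheets around the brain and the ganglion's roots. Of 37 of their genes tested, 6 were called lower and none higher, 26 were lower and 5 higher without overlap, and the median was -0.44. Slc47a1, an exporter of organic cations (chromosome 11, 61343401 to 61378345, close to Mfap4), was at 4.39 and 5.62 FPKM after PBS and at 0.167 and 0 FPKM after UCN1 (log2 difference -3.24 ± 0.29, adjusted p = 0.00612). It had 121 and 168 reads after PBS and 5 and 0 after UCN1, and its log2 difference ran from -6.46 to -2.47 over the alternatives. Tspan11, a tetraspanin, was at 5.35 and 4.23 against 0.513 and 0.614 FPKM (-2.31 ± 0.24, adjusted p = 0.013). The transcription factor Six2 was at 2.69 and 2.18 against 0.209 and 0.400 FPKM (-1.87 ± 0.30, adjusted p = 0.0462). Slc26a7, Fxyd5 and Mgp were lower by 1.39, 0.90 and 0.79. Zic1, a transcription factor of the meninges and the brain, was at 1.45 and 1.68 against 0.200 and 0.0619 FPKM and was not called (adjusted p = 0.09). Not every member was lower, since Aldh1a2, a retinoic acid enzyme of the arachnoid, was at 0.816 and 1.01 against 1.71 and 2.35 FPKM, uncalled. The perineurium list had 1 called gene of 13. This was Gdf10, a growth factor of the TGF-beta family, at 2.86 and 2.35 against 0.0338 and 0.0465 FPKM (-2.52 ± 0.31, adjusted p = 0.0184). It had 234 and 209 reads after PBS and 3 and 4 after UCN1. Its log2 difference ran from -5.84 to -1.79 over the alternatives, so the size of its fall is uncertain. Sfrp4 and Sfrp2, secreted inhibitors of WNT, are in no list and fell too. Sfrp4 was at 9.64 and 7.00 against 1.93 and 1.84 FPKM (-1.87 ± 0.20, adjusted p = 0.0137). Sfrp2 was at 3.78 and 3.07 against 0.530 and 0.669 FPKM (-1.83 ± 0.25, adjusted p = 0.028).

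**Figure D3:**
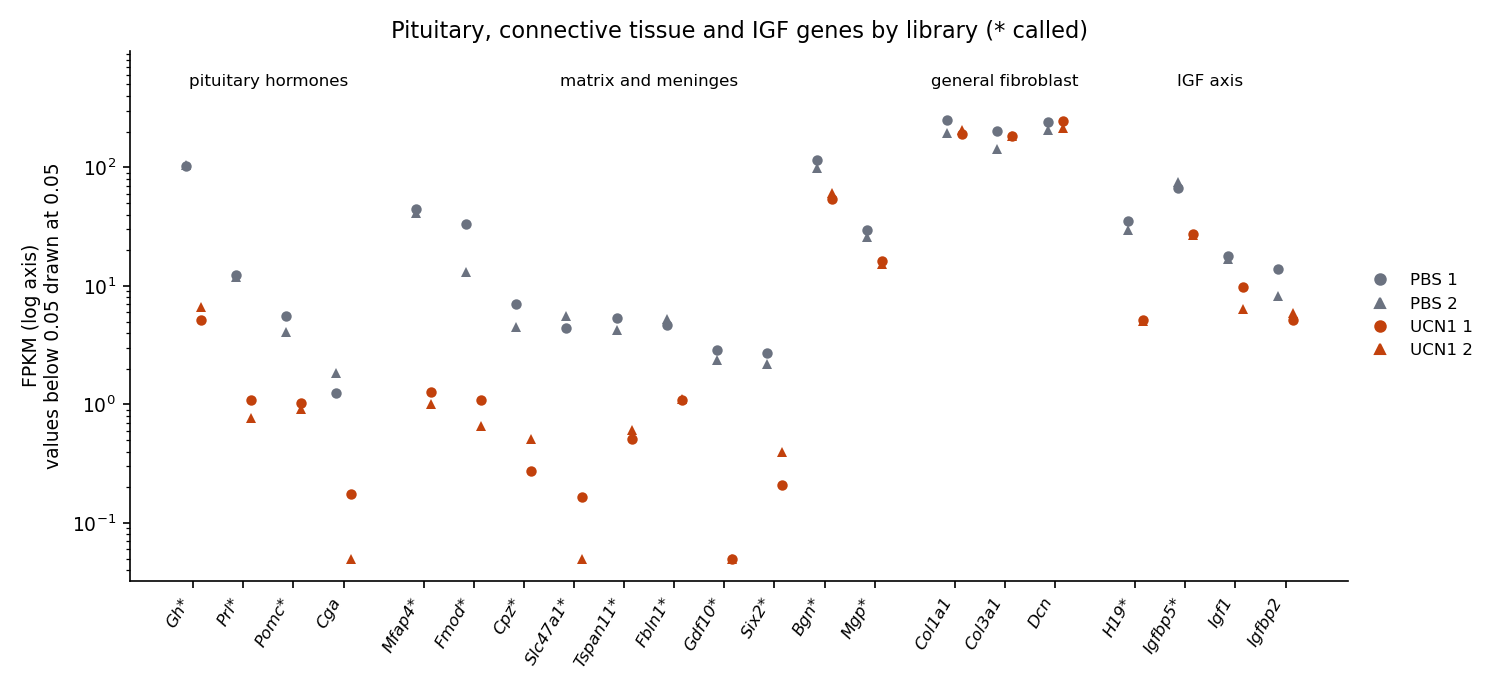
FPKM in each library (log axis, values below 0.05 drawn at 0.05) is shown for pituitary, connective tissue and insulin-like growth factor genes, with PBS in grey, UCN1 in orange, circles for replicate 1 and triangles for replicate 2, and an asterisk for called genes. Gh falls from 103 and 104 to 5.17 and 6.60 FPKM, while Col1a1, Col3a1 and Dcn overlap between the groups.

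Pituitary hormone transcripts were present after PBS and much lower after UCN1. The pituitary lies between the trigeminal ganglia at the base of the skull. Gh, growth hormone, was at 103 and 104 FPKM after PBS and at 5.17 and 6.60 FPKM after UCN1 (log2 difference -4.03 ± 0.13, adjusted p = 8.41e-06). Prl, prolactin, was at 12.4 and 11.9 against 1.09 and 0.775 FPKM (-3.15 ± 0.19, adjusted p = 0.000748). Pomc, the precursor of ACTH, was at 5.62 and 4.06 against 1.03 and 0.915 FPKM (-1.84 ± 0.24, adjusted p = 0.0223). Cga, the shared alpha subunit of glycoprotein hormones, was at 1.24 and 1.84 against 0.176 and 0 FPKM, uncalled. These 4 hormone genes had UCN1 libraries below both PBS libraries. Of the 12 pituitary markers fixed, 6 were tested and 3 were called lower, and Lhb was among those at 0 in every library. Chga, which sensory neurons also express, makes up most of the marker sum of 328 and 360 FPKM against 215 and 228 FPKM, and overlapped at 203 and 236 against 206 and 218 FPKM. In the separate surgery experiment of the series, where no peptide was injected, Gh ran from 74.0 to 546 FPKM over 3 sham libraries. The part of the amount of pituitary RNA in a library in these values was not tested. Markers of oligodendrocytes and astrocytes, cells of the central part of the nerve root, summed to 17.6 and 16.8 FPKM after PBS and to 11.2 and 11.5 FPKM after UCN1, with none of the 4 tested called. In the longer list for these cells limma called none of 16 tested, 15 had a negative log2 difference, 6 were lower at an unadjusted p under 0.05, voom called 4 lower, and the median was -0.37.

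Genes of the insulin-like growth factor (IGF) axis and imprinted growth genes were lower in 10 of 19 cases without overlap and higher in 5, and 2 were called lower. H19, the maternally expressed noncoding RNA beside Igf2 on chromosome 7 (142575529 to 142578143), was at 35.6 and 29.4 FPKM after PBS and at 5.18 and 5.01 FPKM after UCN1. The log2 difference was -2.55 ± 0.14 with an adjusted p of 0.000316. Igfbp5, an IGF binding protein, was at 67.2 and 74.6 against 27.3 and 26.8 FPKM (-1.37 ± 0.10, adjusted p = 0.0015). Igf1 was at 17.8 and 16.7 against 9.85 and 6.32 FPKM (adjusted p = 0.0718), and Igf2 at 1.40 and 0.528 against 0.0586 and 0.0606 FPKM (adjusted p = 0.26). The receptor gene Igf1r differed by 0.13. Peg10, a paternally expressed gene outside this list, went the other way, from 2.71 and 2.93 to 6.77 and 6.06 FPKM (1.06 ± 0.17, adjusted p = 0.0487). The median of the list was -0.15. In the separate surgery experiment, H19 ran from 10.6 to 38.2 FPKM over the 3 operated (pIONT) libraries. H19 and Igf2 are also expressed in meninges, whose marker values are given above, and their part in the IGF values was not tested.

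In metabolism, 15 of 20 genes of cholesterol synthesis were lower after UCN1 without overlap and none was higher, with a median of -0.21. None was called by limma, 9 were lower at an unadjusted p under 0.05, and voom called 4, all lower. Lss, lanosterol synthase, was at 21.9 and 18.5 against 13.4 and 11.8 FPKM (adjusted p = 0.1). Angptl4, a secreted inhibitor of lipoprotein lipase, rose from 31.2 and 25.2 to 53.2 and 55.2 FPKM (log2 difference 0.94 ± 0.12). Angptl4 was the 1 gene called higher of 23 that respond to glucocorticoids, and Hif3a the 1 called lower, at 8.51 and 6.54 against 3.33 and 2.67 FPKM. The glucocorticoid markers Fkbp5 and Sgk1 were uncalled, Fkbp5 with a difference of -0.04 and Sgk1 of -0.58. Of 11 genes of osmotic and inositol transport, 1 was called higher and 1 lower, with a median of -0.13, and voom called 1 higher and 2 lower. Slc5a3, the myo-inositol carrier, was at 6.69 and 7.30 against 17.6 and 15.9 FPKM (1.20 ± 0.13, adjusted p = 0.0144). Slc6a6, the taurine carrier, fell from 46.1 and 42.5 to 24.7 and 26.9 FPKM (-0.77 ± 0.10, adjusted p = 0.0253).

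Ribosomal protein genes and nuclear genes of the respiratory chain had small positive log2 differences. Of 58 ribosomal protein genes, 43 were higher and 1 lower without overlap, with a median of 0.19. Rps29 was the 1 called, at 9.87 and 8.12 FPKM after PBS and at 17.8 and 21.0 FPKM after UCN1 (log2 difference 1.07 ± 0.15, adjusted p = 0.0276). Ribosomal protein genes have many processed copies that can take their reads, so single members are uncertain. Of 44 respiratory chain genes of the nucleus, 26 were higher and 1 lower without overlap, and the median was 0.14. Limma called none, 11 were higher at an unadjusted p under 0.05, and voom called 1 higher. These are short genes. Of the ribosomal genes 48, and of the respiratory chain genes 31, lay among the shortest eighth of coding genes with at least 5 FPKM (971.6 bases or less), where the median log2 difference was 0.07 and 34.5% were higher without overlap. The part of gene length in these values was not tested.

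The subunits that mitochondria encode themselves differed in the other direction. Of 11, 7 were lower and none higher without overlap, with a median of -0.35, and mt-Nd5 was called. It was at 565 and 615 FPKM after PBS and at 372 and 317 FPKM after UCN1 (log2 difference -0.78 ± 0.10, adjusted p = 0.0223). mt-Co1 was at 9901 and 9794 against 8322 and 7173 FPKM (adjusted p = 0.231). mt-Nd6, the 1 subunit here read from the other strand, was at 229 and 248 against 140 and 36.3 FPKM, uncalled, with the UCN1 libraries far apart from each other. Among 35 proteasome genes limma and voom called none, and 3 were higher at an unadjusted p under 0.05. The 27 lysosome and autophagy genes had none called by either and 5 higher at that level.

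**Figure D4:**
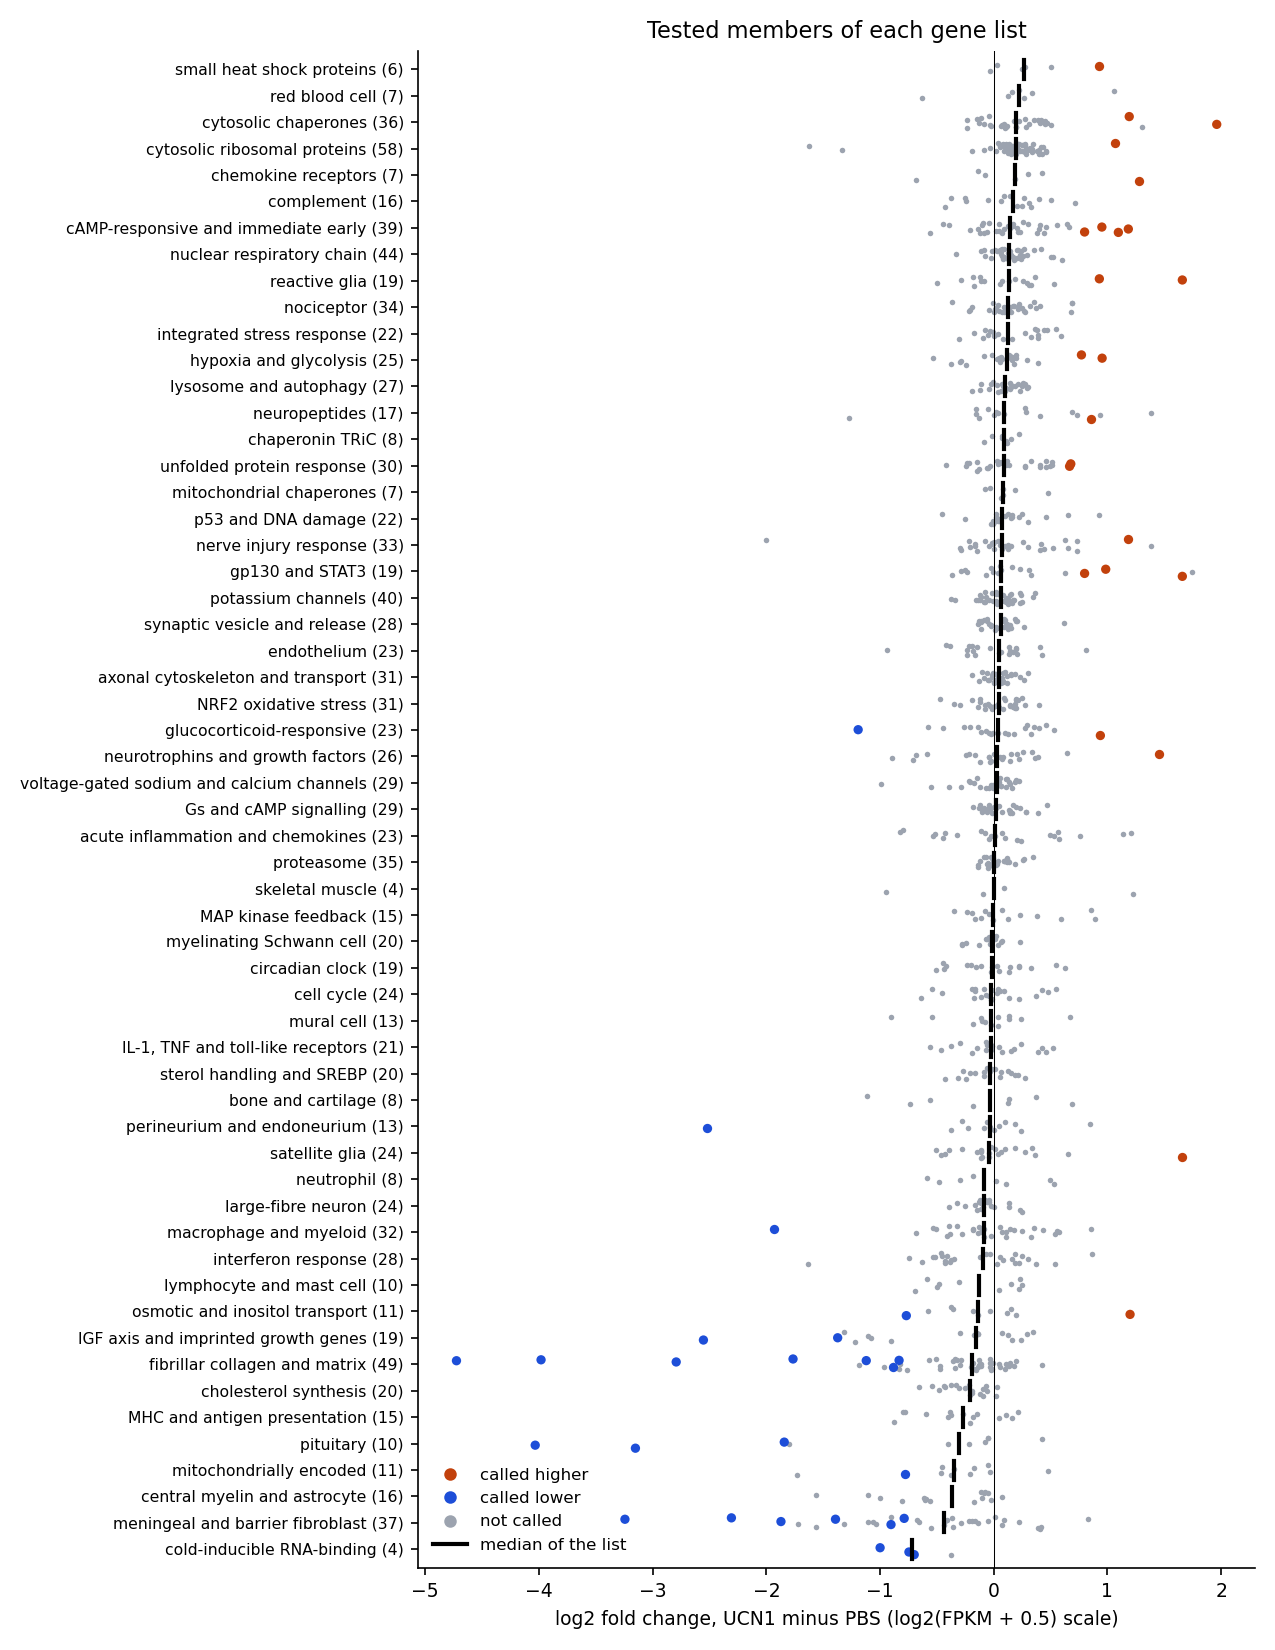
Each point is a tested gene of a list with at least 4 tested members, placed by its log2 fold change, UCN1 minus PBS, on the x axis, with the number tested in brackets after the list's name and a black bar at the median. Called genes are orange (higher) or blue (lower), and the lists run from the small heat shock proteins with a median of 0.26 down to the cold-inducible RNA-binding proteins with -0.72.

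Several called genes belong to none of these groups. Banp, a nuclear matrix-associated regulator, was at 15.4 and 20.5 FPKM after PBS and at 39.8 and 40.7 FPKM after UCN1 (log2 difference 1.16 ± 0.14, adjusted p = 0.0184). Cwc22, a splicing factor that places the exon junction complex, was at 73.2 and 87.8 against 158 and 176 FPKM (1.05 ± 0.11, adjusted p = 0.013). Slc8b1, the mitochondrial sodium-calcium exchanger, was at 13.3 and 9.69 against 22.3 and 24.4 FPKM (1.01 ± 0.16, adjusted p = 0.0462). All 3 had both UCN1 libraries above both PBS libraries. In the separate surgery experiment, Cwc22 ran from 21.0 to 57.1 FPKM over 3 sham libraries. Other genes called higher were Scube1 and Lrp4 (0.89 and 0.86), Dedd2, Arl16, Lims2, Parp3 and Tmsb10 (0.51 to 0.79), and Fxyd3 and Rnaseh2c (0.91 and 0.81), whose exons are overlapped from the other strand over 42.5% and 24.8% of their length. Other genes called lower were the bicarbonate carrier Slc4a10 and Shisa3 (-1.42 and -1.25), Adam12, Cpxm2, Alpl and Smoc1 (-1.10 to -1.01), and H13, Kif19a and Islr (-0.80 to -0.68). Of the called genes, 38 of the 49 higher and 37 of the 48 lower were protein coding, and 45 were in one of the 58 lists, which held 1169 tested genes. The lists were chosen with earlier results of these data known, so this count does not measure how calls gather in them.

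Small RNA genes were called on few reads. These libraries were not made for small RNA, so a microRNA gene here stands for reads over its hairpin and not for the mature microRNA. Mir8099-2 had 5 and 3 reads after PBS and 18 and 13 after UCN1. Mir7211 had 3 and 6 against 0 and 0, Mir5119 3 and 3 against 0 and 0, Mir378b 5 and 6 against 1 and 0, and Snord72 4 and 2 against 0 and 0 reads. No fold is given for these small RNA genes, which had few reads. All of them but Mir8099-2 had a count of 0 in a UCN1 library, and a count of 0 allows up to about 3 reads. Of the remaining calls, 6 were processed pseudogenes and 5 had no entry in the annotation used.

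The surgery experiment of the same series, 3 pIONT and 3 sham libraries at day 10 in a table of its own, shares no sample with the injection experiment. There 14672 genes were tested at the same limit, and 10.5% were called higher and 12.3% lower after pIONT. Of the 97 genes called after UCN1, 76 were tested there and 18 were called, which is 23.7% of the 76 and 0.538% of the surgery calls. Of all genes tested there 22.8% were called, so the share with both directions pooled is near the background. By direction the shares differed. Of the tested genes called higher after UCN1, 12 were called higher after pIONT, 2 lower and 24 not called. Of those called lower after UCN1, 2 were called higher after pIONT, 2 lower and 34 not called. The direction matched in 14, with 12 higher in both and 2 lower in both. Atf3 was higher by 1.18 after UCN1 and by 5.03 after pIONT, Hspb1 by 0.93 and 0.77, Alkal2 by 1.45 and 1.03, Socs3 by 0.99 and 0.90, and Sbno2 by 0.74 and 1.19. Retnla and Kif19a were lower in both. Opposite directions were seen for Igfbp5, at -1.37 after UCN1 and 0.48 after pIONT, for Fxyd5, and for Peg10 and Lims2, which were higher after UCN1 and lower after pIONT. Neither Hspa1b (-0.69 after pIONT) nor Cirbp (0.00) nor Mfap4 (0.78) was called there.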

How the data were processed

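Total RNA of the trigeminal ganglion was extracted with TRIzol and made into libraries with a NEBNext Ultra II RNA kit, per the labels' protocols. No source used here states the strand. The authors deposited 1 table of FPKM for the injection experiment and a separate one for the surgery experiment, normalized by themselves. STAR, HTSeq, DESeq2 and GRCm39 stand in the notes of the submitters, with no role or version. Of 55141 gene identifiers found in GENCODE vM21, 99.42% had the same start and end as in the injection table, so the coordinates given here are those of GRCm38. The columns are numbered 1 and 3 in each group and the titles 1 and 2, and the titles' numbers are used here.

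Genes with a mean of at least 0.5 FPKM over the 4 libraries entered limma 3.58.1 (R 4.3.3) as log2(FPKM + 0.5). The fit used a mean-variance trend and no covariate, and its two-sided p-values were adjusted by Benjamini-Hochberg over all 16139 genes at a threshold of 0.05. Fold changes with their standard error (SE) are on that scale, where those of low genes come out too small. The surgery table was fitted alone in the same way. Low FPKM values times the mean transcript length were whole reads in 98.8% to 99.0% of cases (within 0.1 reads, up to 20 reads), which gave depths of 15693000 to 17052000 reads and a test of recovered reads with limma's voom as an alternative. Planned fits with edgeR and DESeq2 are not reported, since the values are FPKM and not raw counts. Libraries of a group differed by more than sampling noise (chi-square per degree of freedom 10.9 for PBS and 7.64 for UCN1) and were not duplicates. The fit was tested on simulated data with 200 known changes among 15753 genes. The changed genes were drawn only from genes with higher read numbers, and every gene was given the same dispersion, 0.02. These shares therefore do not cover genes with few reads. The fit found 47% of the 100 changes of log2 size 1 and 97% of the 100 of size 2. It thus missed many of the smaller ones, and it made 23 false calls, more than the threshold allows.

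The members and the gene lists were chosen with earlier results of these data known, and lists are described by counts and medians with no set test. The text names every called gene with a symbol that is not a predicted gene, clone or pseudogene, the 15 largest changes in each direction in full, the called members of each list and up to 6 others by level or p, and Ucn, Crhr1, Crhr2 and Hspb1. Some genes that this rule selects are not reported here. Genes outside that rule, among them Alk, Aldh1a2, Chga, Crem, Hsf1, Igf2, Igf1r and Nr4a1, were chosen after their values were seen. Promoter windows are from RefSeq, matched by symbol for 11247 of 15749 tested genes with a symbol (GRCm38.p6), and exon overlaps are from GENCODE vM21. The alternatives tried were other pseudocounts (0.1 and 1), no filter or one at 2 FPKM, TPM, median-of-ratios scaling, array weights, voom, a replicate block and leaving out each library.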

Additional observations from a re-analysis of the deposited data

How the results depend on the processing

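The 97 calls (49 higher, 48 lower) became 83 to 99 with another pseudocount, TPM, median-of-ratios scaling or array weights. Without a filter 2 genes were called (0 higher, 2 lower), and with a filter at 2 FPKM 155 (84 higher, 71 lower). On recovered reads voom called 352 (164 higher, 188 lower), 80 of the 97 genes among them. Planned fits with edgeR and DESeq2 are not reported, as the values are FPKM. Under every alternative other than no filter and the left-out libraries 65 of the 97 genes were called, and Gh and Mfap4 were called under all 13 alternatives. With 1 library left out the count was 2 to 13 (0 to 4 higher, 2 to 9 lower), against 50.5% higher with all 4. The lone library of a group was then taken to vary like the other group. The cause of these shifts was not tested, beyond the smaller number of samples in the last. Replicate numbers 1 and 2 are shared by the groups, but the labels do not say what they mark. The deviations of same-numbered libraries correlated at 0.0387, and with the replicate block 260 genes were called (124 and 136). Uncalled genes whose log2 difference changed sign on leaving out a library, with the range over the 4 such fits, were Ackr3 (-0.23 to 0.0795), Chga (-0.16 to 0.0573), Col1a1 (-0.34 to 0.0246), Col3a1 (-0.14 to 0.36), Crhr1 (-0.34 to 0.0280), Crhr2 (-0.48 to 0.11), Cxcl12 (-0.33 to 0.28), Dcn (-0.0620 to 0.16), Fkbp5 (-0.14 to 0.0490), Gja1 (-0.30 to 0.0722) and Nr4a1 (-0.17 to 0.0552). Depth limits genes under about 20 reads, such as the small RNAs.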
